A study of Homo sapiens with 4 samples.

Results

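The glucocorticoid receptor gene NR3C1, the related steroid receptor genes NR3C2 and PGR, and 7 genes known to be induced by glucocorticoids (TSC22D3, SGK1, PER1, KLF9, DUSP1, ZBTB16 and CEBPD) were read in RNA sequencing of prostate cancer cells with and without knockdown of MAOA. These 10 genes were chosen by symbol, and all 10 were present among the 25343 rows of each deposited table. There were 4 groups of 1 library each. C4-2B ENZR cells, an enzalutamide-resistant line kept in 20 µM of the antiandrogen enzalutamide, carried either a hairpin against the MAOA coding region or a non-targeting control hairpin. LNCaP cells, an androgen-responsive line grown without the drug, carried the same kinds of hairpin. All cells grew in medium with 10% fetal bovine serum, and all carried a lentiviral hairpin under antibiotic selection. No glucocorticoid treatment is named in the labels, and it is not stated whether the selected cells were single clones or pools. The library names give the knockdown hairpins of the 2 lines different tags, and whether their sequences differ is not stated. The targeted gene, MAOA, encodes a monoamine oxidase of the outer mitochondrial membrane.

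The glucocorticoid receptor is a transcription factor that waits in the cytoplasm in a chaperone complex, binds cortisol, enters the nucleus and switches on genes that carry its response element. The mineralocorticoid and progesterone receptors belong to the same subfamily and recognise much the same DNA element. In prostate cancer the glucocorticoid receptor is known as a possible bypass of antiandrogen treatment, and some of its targets, such as FKBP5 and ZBTB16, are also induced by androgen.

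Depth was 23679869 and 23479051 recovered reads in the knockdown and control libraries of C4-2B ENZR, and 52012696 and 52550452 reads in those of LNCaP. MAOA itself was at 219 CPM (the authors' read counts scaled to library depth) in the knockdown against 327 CPM in the control of C4-2B ENZR, 66.8% of the control level, and at 140 against 445 CPM in LNCaP, 31.3% of control. All 9 markers of prostate luminal cells reached a mean of 1 CPM in both lines. KLK3, the prostate-specific antigen gene, was low in C4-2B ENZR, at 6.34 and 3.72 CPM, against 2716 and 2391 CPM in LNCaP. It rose over both lines in limma (adjusted p = 0.0252) but not in edgeR with recomputed scaling (0.322), and the other 8 luminal markers did not pass. The summed level of 3 basal markers stayed at or under 1.15 CPM, that of 3 immune markers at or under 0.246 CPM, and that of 3 endothelial markers at or under 17.5 CPM in each library. That of 4 fibroblast markers was 55.8 against 45.8 CPM in C4-2B ENZR and 60.9 against 54.2 CPM in LNCaP, nearly all from COL1A1, while COL1A2 was at 0. That of 4 neuroendocrine markers was 76.0 against 91.5 CPM in C4-2B ENZR and 55.2 against 36.7 CPM in LNCaP. Nearly all of this sum came from ENO2, while CHGA stayed at or under 0.163 CPM in each library. Of these markers, 1 fibroblast, 2 endothelial and 2 neuroendocrine genes reached a mean of 1 CPM in both lines and could be tested. None of them passed, against a background of 4.27% of all 13110 tested genes that rose and 1.50% that fell. No basal or immune marker could be tested. LUM, a fibroblast marker with 0 reads in LNCaP, was not tested either. It had 72 reads in the knockdown against 32 in the control of C4-2B ENZR (log2 counting interval 0.56 to 1.83). The part of any of these markers in the results was not tested. With 1 library a group, a difference within a line has no replicate check, and the intervals given for it cover counting error only. In bulk RNA, fewer cells expressing a gene and less RNA per cell cannot be told apart.

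The receptor that gives the set its name was barely detected as RNA. NR3C1 had 13 reads (0.529 CPM) in the knockdown and 7 reads (0.283 CPM) in the control library of C4-2B ENZR, and 5 reads (0.102 CPM) and 8 reads (0.141 CPM) in those of LNCaP. These counts lay just above 3 reads, taken here as the detection floor. The knockdown over control ratio could not be told from equality in either line, with counting intervals of -0.53 to 2.47 in C4-2B ENZR and -2.42 to 1.33 in LNCaP on the log2 scale. PGR, the progesterone receptor gene, was as sparse. It had 14 reads in the knockdown against 5 in the control of C4-2B ENZR (interval -0.06 to 3.32) and 7 against 5 reads in LNCaP (-1.17 to 2.70). Exons of PGR overlap PGR-AS1 on the other strand over 5.86% of their bases, and the labels do not say whether counting used strand. Neither gene reached the mean of 1 CPM needed for the test over both lines. In a fit without that filter neither passed, with limma adjusted p = 0.716 for NR3C1 and 0.310 for PGR.

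NR3C2, the mineralocorticoid receptor gene, was the 1 receptor of the 3 with a level above 1 CPM. It was at 6.83 CPM (168 reads) in the knockdown and 6.31 CPM (156 reads) in the control of C4-2B ENZR, and at 6.10 CPM (298 reads) and 5.44 CPM (309 reads) in LNCaP. The 4 libraries were close together, and both counting intervals held equality. The mean log2 ratio over both lines was 0.12 (SE 0.17), which did not pass (limma adjusted p = 0.770).

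Per length of transcript, NR3C2 was at 1.16 and 1.07 CPM per kb in the knockdown and control of C4-2B ENZR and at 1.03 and 0.921 CPM per kb in those of LNCaP, above the other receptors shown. The oestrogen receptor gene ESR2 came next at 0.193 to 0.313 CPM per kb over the 4 libraries. NR3C1, at 0.0140 to 0.0726 CPM per kb, PGR, at 0.00641 to 0.0414, and ESR1, at 0 to 0.0503, could not be ordered among themselves at these counts.

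**Figure D1:**
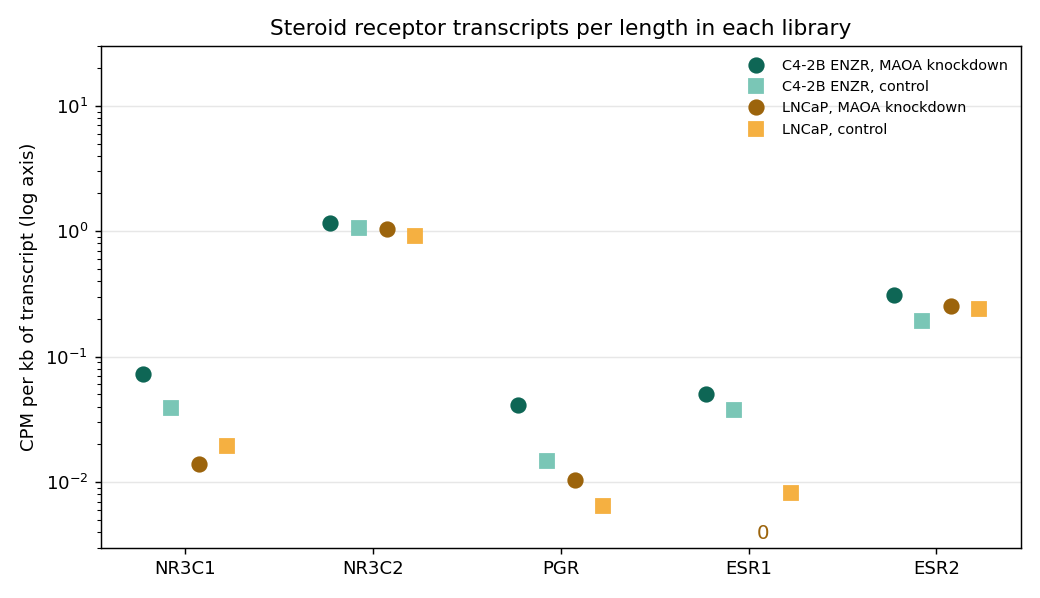
Level of 5 steroid receptor transcripts per kb of their longest protein-coding transcript (log axis) in each of the 4 libraries, knockdown as circles and control as squares. NR3C2 lies between 0.921 and 1.16 CPM per kb and ESR2 between 0.193 and 0.313, while NR3C1 and PGR stay under 0.1, and ESR1 is listed at 0 in the LNCaP knockdown.

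The machinery around the receptor was present. All 10 genes of a list of receptor chaperones and cochaperones were measured, among them HSP90AA1, a cytosolic chaperone that holds the receptor ready for hormone (3356 CPM in the knockdown and 4226 CPM in the control of C4-2B ENZR, 1282 and 1498 CPM in LNCaP). None of the 10 passed over both lines, against a background of 4.27% of all 13110 tested genes that rose and 1.50% that fell. Their median mean log2 ratio was -0.12, beside 0.06 over all tested genes. After centring each line on its median ratio HSP90AA1 (limma adjusted p = 0.0397) and BAG1, a cochaperone (0.0222), fell, and neither did in edgeR with recomputed scaling (0.0762 and 0.108). With libraries rescaled to the same sum HSPA8 fell as well as these 2 genes. HSPA8 was at 2629 against 3624 CPM in C4-2B ENZR and 1287 against 1324 CPM in LNCaP, and it did not pass in edgeR with recomputed scaling (0.119). HSP90AB1 had the highest mean ratio of the list (0.02) and BAG1 the lowest (-0.32).

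Of 10 nuclear receptor coregulators none passed (backgrounds 4.27% and 1.50%), and their median mean log2 ratio was 0.00, beside 0.06 over all tested genes. The highest mean ratio was that of MED14, a Mediator subunit (0.19), and the lowest that of NRIP1, a corepressor (-0.37, limma adjusted p = 0.0566). NRIP1 was at 82.2 against 95.8 CPM in C4-2B ENZR and 39.4 against 56.7 CPM in LNCaP, and it fell after centring (0.00560). Of the enzymes that set cortisol supply, HSD11B1, which regenerates cortisol, had 0 reads in each library. HSD11B2, which inactivates cortisol, was at 30.7 against 23.8 CPM in C4-2B ENZR and 50.3 against 43.9 CPM in LNCaP and missed the threshold (limma adjusted p = 0.229). H6PD, which supplies cofactor to HSD11B1, was at 95.5 against 71.0 CPM in C4-2B ENZR and 211 against 192 CPM in LNCaP (0.180).

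**Figure D2:**
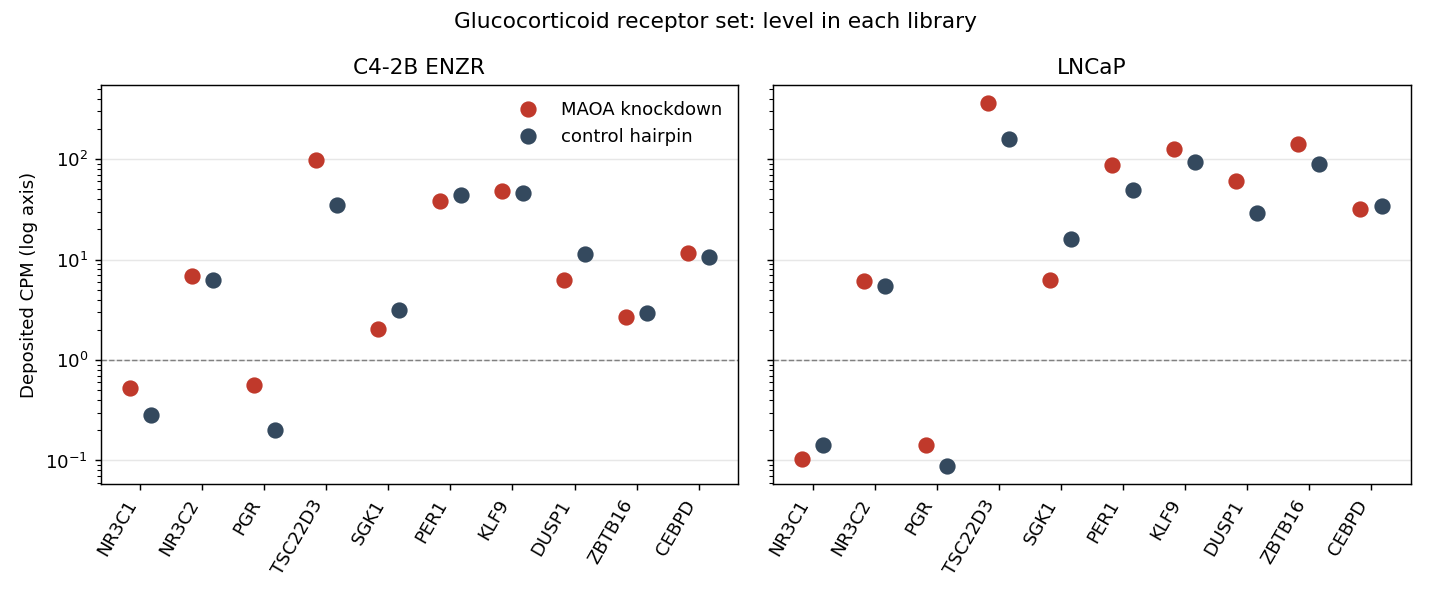
Deposited CPM (log axis) of the 10 genes in the MAOA knockdown and control libraries, with 1 library per point, C4-2B ENZR on the left and LNCaP on the right. NR3C1 and PGR lie under the dashed line at 1 CPM in all 4 libraries, TSC22D3 is higher in both knockdown libraries and SGK1 is lower in both; CPM is not corrected for length, so heights of different genes are not compared.

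The 7 inducible genes gave no common direction. Over both lines 1 member, TSC22D3, rose and 1, SGK1, fell, and the other 6 tested did not pass (backgrounds 4.27% and 1.50%). The median mean log2 ratio of the 8 tested members was 0.20, beside 0.06 over all tested genes. Over all genes 560 rose and 197 fell, against 578 and 541 after centring each line on its median ratio and 309 and 585 with libraries rescaled to the same sum. Within lines, the log2 ratio with 1 CPM added was past 2-fold upward for 1 member in C4-2B ENZR, TSC22D3 (background 0.290% of 13806 genes), and downward for none (background 0.152%). In LNCaP it was past 2-fold upward for 2 members, TSC22D3 and DUSP1 (background 0.580% of 13783 genes), and downward for 1, SGK1 (background 0.254%). The median ratio of genes with a mean of at least 10 CPM was -0.01 in C4-2B ENZR but 0.13 in LNCaP. LNCaP ratios of the inducible genes are therefore given below also relative to that median, and those of other genes mostly are not. The 8 tested members had a median ratio of -0.01 in C4-2B ENZR and 0.54 in LNCaP, or 0.40 relative to the LNCaP median. In the LNCaP knockdown TSC22D3, PER1, KLF9, DUSP1 and ZBTB16 were higher, and SGK1 and CEBPD lower. In that of C4-2B ENZR TSC22D3, KLF9 and CEBPD were higher, and SGK1, PER1, DUSP1 and ZBTB16 lower.

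Promoter sequences of the 4 inducible genes with the widest differences are shown for orientation. They are RefSeq windows on GRCh38.p14, from 250 bases before to 50 after an annotated start, whereas the submitters' notes name hg19 for the reads, and the data do not say which start was used. Of the 10 genes 8 had such windows, 24 in all. Both strands were searched for a full glucocorticoid response element (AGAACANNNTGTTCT), a single arm of it (AGAACA, which a full element also holds), a FOXO motif (GTAAACA), a cAMP response element (TGACGTCA) and an E-box (CACGTG). Over all 35116 windows these were found in 0.00285%, 14.8%, 3.42%, 1.85% and 7.26%. Capitals mark the matches.
TSC22D3, chrX:107717013-107717312, minus strand: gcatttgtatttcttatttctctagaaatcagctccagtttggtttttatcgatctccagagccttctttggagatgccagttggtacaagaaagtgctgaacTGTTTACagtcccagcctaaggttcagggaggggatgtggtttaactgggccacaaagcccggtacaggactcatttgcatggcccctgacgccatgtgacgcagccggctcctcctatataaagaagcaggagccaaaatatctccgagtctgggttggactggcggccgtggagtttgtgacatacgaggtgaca
SGK1, chr6:134177812-134178111, minus strand: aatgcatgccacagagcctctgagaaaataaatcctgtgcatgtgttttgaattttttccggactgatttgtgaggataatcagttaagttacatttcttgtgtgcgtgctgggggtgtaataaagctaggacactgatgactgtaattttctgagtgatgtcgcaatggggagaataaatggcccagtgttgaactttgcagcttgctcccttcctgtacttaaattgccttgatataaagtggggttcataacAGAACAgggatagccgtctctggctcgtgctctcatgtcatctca
PER1, chr17:8152355-8152654, minus strand: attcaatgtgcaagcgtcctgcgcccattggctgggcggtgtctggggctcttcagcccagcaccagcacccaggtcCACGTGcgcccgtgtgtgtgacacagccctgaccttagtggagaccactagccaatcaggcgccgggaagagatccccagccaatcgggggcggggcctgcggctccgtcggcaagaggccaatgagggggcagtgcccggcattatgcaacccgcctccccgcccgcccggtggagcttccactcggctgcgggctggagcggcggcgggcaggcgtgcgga
DUSP1, chr5:172771146-172771445, minus strand: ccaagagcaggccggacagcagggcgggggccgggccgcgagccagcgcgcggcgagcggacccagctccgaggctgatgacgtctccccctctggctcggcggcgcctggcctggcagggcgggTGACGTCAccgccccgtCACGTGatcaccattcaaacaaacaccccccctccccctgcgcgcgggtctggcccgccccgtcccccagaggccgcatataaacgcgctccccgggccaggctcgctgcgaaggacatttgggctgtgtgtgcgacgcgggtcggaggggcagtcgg
No member window held the full element, a form so strict that 1 window of all held it. The TSC22D3 window shown, 1 of 4 for that gene, held a FOXO motif starting at position -147 from the start. The SGK1 window shown, 1 of 3, held a single arm of the response element. The windows of TSC22D3 and SGK1 that are not shown held no match. Of the 24 member windows, 1 held a single arm, 2 a FOXO motif, 1 a cAMP response element and 4 an E-box. PER1 held an E-box at -173, and DUSP1 held a cAMP response element at -125 and an E-box at -108. A match describes letters and does not show that a factor bound there.

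TSC22D3 encodes GILZ, the glucocorticoid-induced leucine zipper protein, which mediates part of the anti-inflammatory action of the hormone. It was at 97.3 CPM (2394 reads) in the knockdown against 35.2 CPM (870 reads) in the control of C4-2B ENZR. The LNCaP libraries had 362 CPM (17668 reads) in the knockdown against 158 CPM (8948 reads) in the control. Both knockdown libraries were above the control of their own line, and the LNCaP control was above the C4-2B ENZR knockdown. The within-line log2 ratios were 1.44 in C4-2B ENZR (counting interval 1.36 to 1.58, without the added 1 CPM) and 1.19 in LNCaP (1.16 to 1.23), or 1.06 relative to the LNCaP median. They ranked 14th from the top of 13806 genes and 40th of 13783. Over both lines TSC22D3 rose by 1.32 on the log2 scale (SE 0.12, limma adjusted p = 5.73e-20), and it passed in each of 9 other fits, where the adjusted p lay between 5.29e-23 and 0.000483. This SE is pooled over genes, with 372 prior against 1 residual degree of freedom, so it hardly measures the spread between the lines. Exons of NCBP2L on the other strand overlap 1.49% of the exon bases of TSC22D3.

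The other TSC22 domain genes had smaller ratios in both lines. TSC22D1 was at 60.6 against 60.3 CPM in C4-2B ENZR and 179 against 188 CPM in LNCaP. TSC22D2 had log2 ratios of -0.19 in C4-2B ENZR and 0.31 in LNCaP, and TSC22D4 had -0.09 and 0.33. Their means over both lines were 0.06 and 0.12, so both were higher in the LNCaP knockdown alone. None of the 3 passed (limma adjusted p of 0.932, 0.875 and 0.669). Whether TSC22D3 differed from its relatives was not tested.

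SGK1, a kinase induced by serum and glucocorticoids that regulates ion channels and cell survival, went the other way. It was at 2.03 CPM (50 reads) in the knockdown against 3.11 CPM (77 reads) in the control of C4-2B ENZR. In LNCaP it was at 6.32 CPM (309 reads) in the knockdown against 16.0 CPM (910 reads) in the control. Both knockdown libraries were below the control of their own line. The log2 ratios were -0.44 in C4-2B ENZR and -1.22 in LNCaP, or -1.35 relative to the LNCaP median. Without the added 1 CPM they were -0.61 (counting interval -1.16 to -0.08) and -1.34 (-1.53 to -1.15). SGK1 was the 18th lowest ratio in LNCaP and the 319th lowest in C4-2B ENZR. Over both lines it fell by 0.83 on the log2 scale (SE 0.17, limma adjusted p = 0.000168). It passed in 7 of 8 other fits that tested it, with adjusted p from 9.99e-05 to 0.0831, and did not pass where no filter on low genes was used.

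Neither paralog passed over both lines with the deposited scaling, and whether they differed from SGK1 was not tested. SGK3 was at 32.1 against 35.7 CPM in C4-2B ENZR and 13.2 against 19.1 CPM in LNCaP (mean log2 -0.32, limma adjusted p = 0.163), and it fell after centring (0.0488). SGK2 was at 9.68 against 6.96 CPM in C4-2B ENZR and 2.29 against 2.38 CPM in LNCaP (limma adjusted p = 0.599). Its log2 ratios were 0.42 and -0.04, so in C4-2B ENZR it differed about as much as SGK1, in the other direction.

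**Figure D3:**
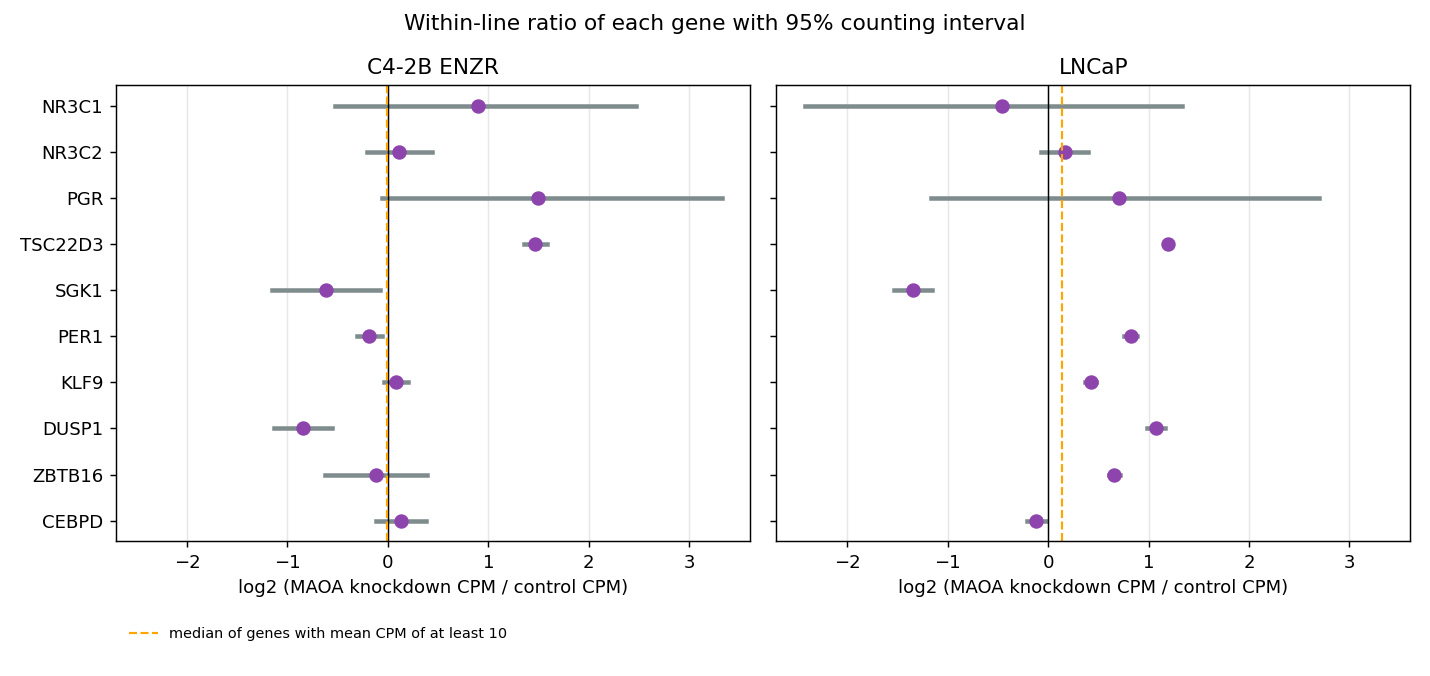
Within-line log2 ratio of MAOA knockdown over control CPM for each of the 10 genes, without pseudocount, as points with 95% Clopper-Pearson counting intervals (grey bars), and the median ratio of each table as a dashed line. TSC22D3 lies right of 0 and SGK1 left of 0 in both lines, PER1 and DUSP1 lie on opposite sides of 0 in the 2 lines, and the intervals of NR3C1 and PGR span 0.

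DUSP1 and PER1 had ratios of opposite sign in the 2 lines. DUSP1, a nuclear phosphatase that switches off MAP kinases, was at 6.26 CPM (154 reads) in the knockdown against 11.2 CPM (278 reads) in the control of C4-2B ENZR. LNCaP had 60.8 CPM (2972 reads) against 28.9 CPM (1640 reads). Its knockdown library was thus lower in C4-2B ENZR and higher in LNCaP. The log2 ratios were -0.75 and 1.05, or 0.91 relative to the LNCaP median. Without the added 1 CPM they were -0.84 (counting interval -1.14 to -0.55) and 1.07 (0.99 to 1.16). The mean over both lines, 0.15, did not pass (limma adjusted p = 0.663). With 4 libraries no degree of freedom remains to test this difference between C4-2B ENZR and LNCaP.

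Among the other inducible nuclear phosphatases of this family, DUSP4 rose over both lines (mean log2 0.70, limma adjusted p = 0.000276, not without a filter on low genes). It was at 1.95 against 1.37 CPM in C4-2B ENZR and 179 against 84.0 CPM in LNCaP. In C4-2B ENZR this rested on 48 against 34 reads, and the counting interval (-0.16 to 1.18) held equality. DUSP5 rose too in limma (0.61, adjusted p = 0.0143), but its ratios were -0.19 and 1.40 and it did not pass in edgeR with recomputed scaling (0.248). DUSP2 fell (-0.41, adjusted p = 0.0438), with 1197 against 1755 reads in C4-2B ENZR and 735 against 1052 reads in LNCaP. It did not pass in DESeq2 (0.0976), with a pseudocount of 5 or without a filter on low genes.

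DUSP1 is also an immediate early gene, which cells switch on within minutes of a stimulus or of handling. Of 9 other immediate early genes, chosen after their values were seen, 8 were measured in C4-2B ENZR with a median log2 ratio of 0.08, and 7 in LNCaP with a median of 0.49. Their summed level was 206 against 199 CPM in C4-2B ENZR and 763 against 444 CPM in LNCaP. Not all were higher in the LNCaP knockdown. EGR1 (log2 -0.28, 65 against 104 reads) and FOSB (-0.14, 16 against 26 reads) were lower there, and the rest of the list was higher. JUNB, a subunit of the AP-1 factor, was at 50.4 against 50.5 CPM in C4-2B ENZR and 255 against 131 CPM in LNCaP. Its rise over both lines in limma (adjusted p = 0.00646) did not hold in edgeR with recomputed scaling (0.148). ATF3, a stress-induced transcription factor, had ratios above 0 in both lines, at 0.49 in C4-2B ENZR and 1.18 in LNCaP, and it rose in limma (adjusted p = 1.03e-07), in edgeR with recomputed scaling (0.00952) and in DESeq2 (0.000398). NR4A1, an orphan nuclear receptor gene, rose in limma (0.0462) but not in edgeR with recomputed scaling (0.0954). Their part in the DUSP1 values was not tested.

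PER1, a repressor of the circadian clock that glucocorticoids induce directly, was at 38.6 CPM (950 reads) in the knockdown against 43.9 CPM (1086 reads) in the control of C4-2B ENZR. LNCaP had 87.6 CPM (4280 reads) against 49.6 CPM (2815 reads). The log2 ratios were -0.18 (counting interval -0.31 to -0.06) and 0.81 (0.75 to 0.89), or 0.67 relative to the LNCaP median. Over both lines PER1 did not pass (mean log2 0.31, limma adjusted p = 0.137).

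The other period genes had ratios of the same signs. PER2 was at 53.5 against 58.6 CPM in C4-2B ENZR and 33.4 against 22.4 CPM in LNCaP, with log2 ratios of -0.13 and 0.55. PER3 was at 88.2 against 130 CPM in C4-2B ENZR and 47.6 against 37.0 CPM in LNCaP, with log2 ratios of -0.55 and 0.36. These signs were kept under 2 other pseudocounts, after centring and with libraries rescaled to the same sum. Neither gene passed over both lines (limma adjusted p = 0.390 for PER2 and 0.748 for PER3).

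KLF9, a Krüppel-like transcription factor that restrains proliferation, was at 48.2 CPM (1185 reads) in the knockdown against 45.7 CPM (1130 reads) in the control of C4-2B ENZR, where the counting interval held equality. In LNCaP it was at 125 CPM (6125 reads) against 93.5 CPM (5308 reads), a log2 ratio of 0.42, or 0.28 relative to the median. It did not pass over both lines (mean log2 0.25, limma adjusted p = 0.253). Of its relatives, KLF13 had ratios of 0.16 and 0.55 (adjusted p = 0.0632), and KLF16 had -0.09 and 0.29 (0.730).

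ZBTB16 encodes PLZF, a zinc finger repressor induced by glucocorticoids, progestins and androgens. It was at 2.68 CPM (66 reads) in the knockdown and 2.91 CPM (72 reads) in the control of C4-2B ENZR, which overlap within counting error. In LNCaP it was at 142 CPM (6933 reads) against 89.8 CPM (5098 reads), a log2 ratio of 0.65, or 0.52 relative to the median. Over both lines it did not pass (mean log2 0.28, limma adjusted p = 0.260).

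CEBPD, a C/EBP transcription factor of acute-phase and differentiation programmes, was at 11.5 CPM (284 reads) against 10.6 CPM (261 reads) in C4-2B ENZR and at 31.7 CPM (1551 reads) against 34.4 CPM (1955 reads) in LNCaP. The log2 ratios of 0.12 and -0.11, or -0.25 relative to the LNCaP median, were of opposite sign, and the mean was 0.00 (limma adjusted p = 0.996). Other C/EBP genes did pass. CEBPB, which glucocorticoids can also induce, rose by 0.53 (adjusted p = 0.00158), at 67.8 against 44.1 CPM and 92.1 against 67.1 CPM in C4-2B ENZR and LNCaP. CEBPG, a dimer partner without an activation domain of its own, rose by 0.71 (adjusted p = 5.01e-06), at 71.5 against 53.5 CPM and 152 against 75.3 CPM. Both also passed in edgeR with recomputed scaling (0.0423 and 0.0158).

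**Figure D4:**
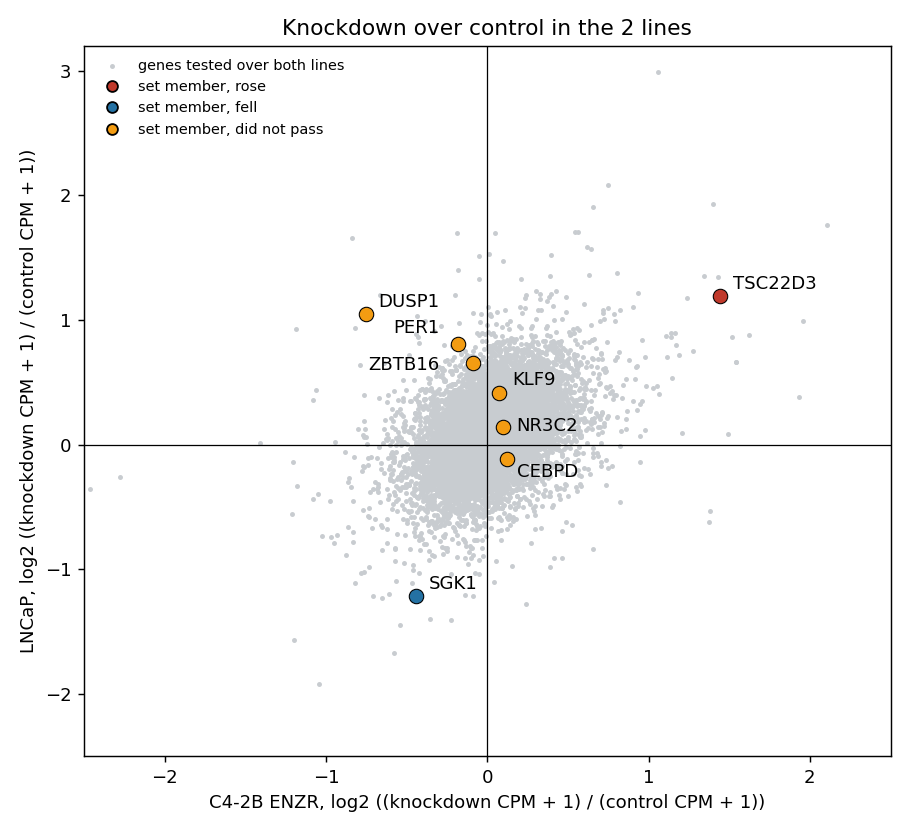
Log2 ratio of knockdown over control in C4-2B ENZR (x axis) and in LNCaP (y axis), with 1 CPM added, for all 13110 tested genes (grey, 1 gene outside the drawn range) and the 8 tested members. TSC22D3 stands at the upper right (1.44 and 1.19) and SGK1 at the lower left (-0.44 and -1.22), while DUSP1 and PER1 lie at the upper left.

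**Figure D5:**
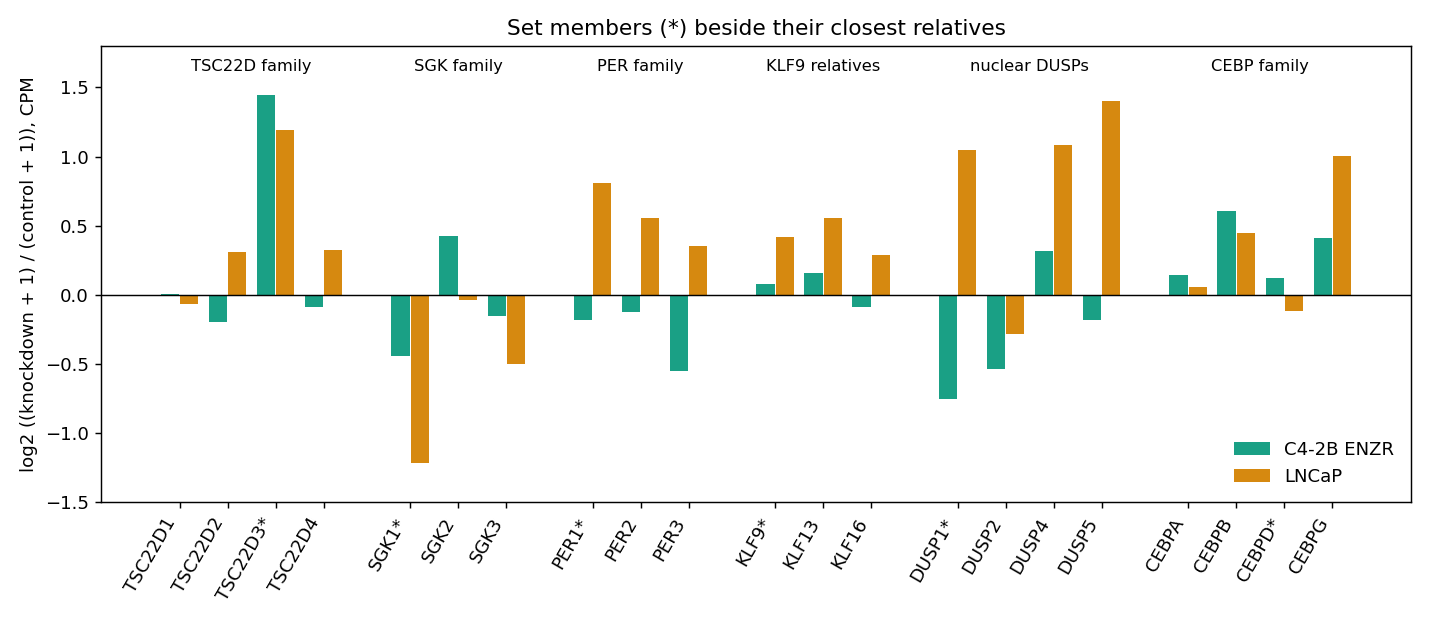
Within-line log2 ratio of knockdown over control (1 CPM added) for members, marked with an asterisk, beside their relatives with a mean of at least 1 CPM in both tables, 1 pair of libraries per bar. TSC22D3 is the 1 TSC22 domain gene with high bars in both lines (1.44 and 1.19), and all 3 period genes have bars below 0 in C4-2B ENZR and above 0 in LNCaP.

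Between the lines, levels come from tables that were normalized separately. The line cannot be told apart from the enzalutamide in the medium or from the sequencing lane given in the library names. The levels are therefore set side by side with no test. All 7 inducible genes were lower in C4-2B ENZR than in LNCaP, in both the knockdown and the control libraries, and likewise with a scaling over all 4 libraries. Of all 13110 tested genes, 37.0% were lower in both pairs with the deposited scaling, and 44.8% with a scaling over all 4 libraries. The gap was widest for ZBTB16 (log2 -5.28 between knockdown libraries and -4.54 between controls) and narrowest for PER1 between controls (-0.17). NR3C2 was at much the same level in both lines (log2 0.14 between knockdown libraries and 0.18 between controls). Within LNCaP the NR3C2 ratio changed sign, to -0.03, when libraries were rescaled to the same sum.

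A wider list of 30 glucocorticoid-induced genes held 22 that could be tested. Of these, 4 rose and none fell, against backgrounds of 4.27% and 1.50%, and their median mean log2 ratio was 0.20, beside 0.06 over all tested genes. The list was chosen with earlier results of these data known, so these counts are not independent of the values. DDIT4, an inhibitor of mTORC1, rose by 1.48 (limma adjusted p = 2.62e-19), at 465 against 119 CPM in C4-2B ENZR and 785 against 394 CPM in LNCaP. BIRC3, an inhibitor of apoptosis that NF-kB also induces, rose by 0.87 (adjusted p = 4.92e-06), at 8.50 against 5.26 CPM and 39.2 against 17.4 CPM. TXNIP, which binds thioredoxin and restrains glucose uptake, rose by 0.84 (adjusted p = 4.97e-08), at 107 against 53.9 CPM and 565 against 346 CPM. CEBPB was the fourth. These 4 also passed in edgeR with recomputed scaling, and BIRC3 and TXNIP alone in DESeq2. FKBP5, a cochaperone that is among the steadiest glucocorticoid and androgen targets, was at 73.0 against 82.7 CPM in C4-2B ENZR and 398 against 413 CPM in LNCaP and was not called (mean log2 -0.12, limma adjusted p = 0.693). The lowest mean ratio was that of CRISPLD2 (-0.32, limma adjusted p = 0.341), at 1.18 against 1.54 CPM and 2.84 against 4.14 CPM. PDK4 and TAT, metabolic targets known from liver, stayed at or under 1.27 CPM in each library.

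Genes that glucocorticoids repress were mostly under the filter on low levels. Of 10 such inflammatory genes 1, ICAM1, an adhesion molecule, could be tested. It was at 29.5 against 22.4 CPM in C4-2B ENZR and 17.9 against 12.4 CPM in LNCaP, and it rose in limma (mean log2 0.44, adjusted p = 0.0446) but not after centring (0.0653) or in edgeR with recomputed scaling (0.101). IL6 had 0 reads in each library, and CXCL8 was at 0.512 CPM or less. The list was not silent in LNCaP. TNF (9.23 against 7.98 CPM), CCL2 (6.12 against 6.92 CPM) and MMP1 (3.17 against 2.11 CPM) were measured there. They missed the filter through C4-2B ENZR, where each was at or under 0.244 CPM.

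By the pair of within-line log2 ratios, a measure that rests on 2 values per gene, the genes near to TSC22D3 among 9367 with a mean of at least 10 CPM in both tables included GDF15 (1.43 and 1.35) and CHAC1 (1.52 and 0.86). Nearest to SGK1 were ZNF618 (-0.57 and -1.10), LRRN1 (-0.46 and -1.01) and SFPQ (-0.46 and -0.96). No such genes are given for NR3C1, whose ratios rest on 5 to 13 reads a library.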

How the data were processed

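RNA of 4 libraries, 1 per group, was sequenced in single reads of 50 nt. The submitters' processing notes name hg19, RSEM 1.2.15, Bowtie2 2.1.0 and edgeR, but the sources used here give neither annotation nor strand. The authors deposited 1 table per line of CPM scaled by TMM; the deposited LNCaP values were held as a signal on that scale, because the knockdown column summed to 1064501. All values (100%) were whole multiples of 1 read within 0.02 read, so counts were recovered; 3 reads equal 0.122 and 0.121 CPM in the C4-2B ENZR knockdown and control and 0.0614 and 0.0529 CPM in those of LNCaP. The deposited scaling exceeded recomputed TMM by log2 0.12 in LNCaP and 0.00 in C4-2B ENZR. Rows that share a date-like symbol (4) were left out.

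Each ratio is on the log2(CPM + 1) scale, knockdown minus control, and understates low genes. The main test was limma 3.58.1 (R 4.3.3) fitted to both lines' ratios for the 13110 genes that averaged at least 1 CPM in each table, with a prior trended on mean level and Benjamini-Hochberg adjustment at 0.05 over all of them. "Rose" and "fell" mean that a gene passed it, or the other fit named. The lines are the replicates, with no separate cultures named in the labels, and the p-values rest mostly on a spread pooled over genes. Alternatives were other pseudocounts (0.1, 5), other filters, centring, rescaling to the same sum, edgeR 4.0.16 and DESeq2 1.42.0 on recovered counts with the line as a block. Steps were tested on simulated data. Within-line intervals are 95% Clopper-Pearson from counts without the added 1 CPM, so they are not centred on ratios that hold it. Lengths, exon overlaps and shared 50-mers came from GENCODE 29 (GRCh38); members shared at most 0.348% of their 50-mers with other genes.

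The members and lists were chosen with earlier results of these data known. Named genes were the members, MAOA, each list's extreme and called genes, members' relatives, and for TSC22D3 and SGK1 the 3 genes nearest in ratio; NR3C1, also in that rule, was left out for its low counts, and some genes under the rule are not reported here. Genes named outside it were chosen after their values were seen. They include KLK3, LUM, FKBP5, HSPA8, PDK4, TAT, IL6, CXCL8, TNF, CCL2 and MMP1. The immediate early genes and those set side by side between the lines at the end were chosen in the same way. Markers of basal, immune, fibroblast, endothelial and neuroendocrine cells were read as well.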

Additional observations from a re-analysis of the deposited data

Results flagged for a closer look

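PER1 had a log2 ratio of knockdown over control of -0.18 in C4-2B ENZR and 0.81 in LNCaP, with both counting intervals away from 0, so that the 2 ratios had opposite signs. DUSP1 did the same, at -0.75 in C4-2B ENZR and 1.05 in LNCaP. Neither difference between the lines was tested, since there was 1 library in each group.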

How the results depend on the processing

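TSC22D3 and SGK1 kept their direction in each fit run, and so did NR3C2, PER1, KLF9, DUSP1 and ZBTB16. The mean log2 ratio of CEBPD changed sign to -0.0065 with a pseudocount of 5, -0.061 after centring, -0.10 with libraries rescaled to the same sum, -0.085 in edgeR with recomputed TMM, -0.010 in edgeR with the deposited scaling and -0.068 in DESeq2; the cause was not tested. The count of members that rose was 1, and 2 in edgeR with the deposited scaling, where ZBTB16 passed (log2 0.45, adjusted p = 0.0499). The count that fell was 1, and 0 with a mean of at least 5 CPM, where SGK1 is not tested, and 0 without a filter (SGK1 log2 -0.83, adjusted p = 0.0831). In LNCaP 2 members were 2-fold higher, but 1 with a pseudocount of 5 or after centring and 0 with libraries rescaled to the same sum (TSC22D3 0.99), and 1 was 2-fold lower but 0 with a pseudocount of 5. Over all genes 560 rose and 197 fell, against 142 and 59 without a filter, 309 and 585 after rescaling, 173 and 127 in edgeR with recomputed TMM and 130 and 89 in DESeq2, and 541 fell after centring (578 rose). NR3C1 and PGR, at 5 to 14 reads, are limited by depth. No paired analysis was possible because the labels give no replicate numbers, other than the pairing by line that each of these fits holds. Leaving out 1 line leaves a single ratio, with no test.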

Other observations

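Several genes of the wider lists differed between the lines more than between knockdown and control, as levels from separately normalized tables with no test. For CDKN1C, the cyclin-dependent kinase inhibitor p57, C4-2B ENZR had 2.48 CPM with knockdown and 2.35 CPM without, whereas LNCaP had 39.1 CPM with knockdown and 24.4 CPM without. For ANGPTL4, a secreted inhibitor of lipoprotein lipase, these levels were 0.244 and 0.0809 CPM (6 and 2 reads) in the resistant line, beside 9.25 and 4.41 CPM in LNCaP. PER3 and SGK3 had the opposite order, with more RNA in each C4-2B ENZR library than in either LNCaP library.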
